A study of Mus musculus with 19 samples.

Results

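TRBV31, called Vβ14 in the older nomenclature, is 1 of the 22 T cell receptor beta variable (TRBV) segments listed in 19 repertoire libraries of sorted CD4+ TCRβ+ cells from BALB/c mice. Its entries were taken by name from the segment column of every library. An entry is 1 listed CDR3, in amino acids, with its TRBV and TRBJ names and its number of reads. TRBV31 supplied 134312 of 2146950 entries and 5408129 of 145647255 reads.

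A TCRβ chain is assembled by joining a variable (V), a diversity (D) and a joining (J) segment, and the CDR3 is the loop encoded across these joints that contacts the peptide antigen. Most TRBV segments lie ahead of the 2 D-J-C clusters and join by deletion of the DNA between them. TRBV31 lies behind the last constant gene in the opposite orientation and is known to join by inversion, which keeps the intervening DNA on the chromosome. In RefSeq's GRCm38.p6 table Trbv31 directly follows Trbc2 on chromosome 6, and it was the only 1 of 35 Trbv symbols placed after Trbc2. Coordinates are left out because the files state no build.

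All mice were BALB/c and all cells were taken on day 7. Infarcted hearts (3 libraries) and the mediastinal nodes draining the heart (3 libraries) came from mice with myocardial infarction (MI) by ligation of the left anterior descending artery. Mediastinal nodes from sham-operated mice (4 libraries) had a thoracotomy only. Surgically treated mice received buprenorphine after the operation. Axillary nodes were taken after a subcutaneous injection of 1 mg of mouse heart extract (3 libraries), of 100 µg of porcine cardiac myosin (2 libraries) or of the Titermax Gold adjuvant alone (4 libraries); both antigens were emulsified in the same adjuvant. The antigens' adjuvant volume was 1 of 2 values not assigned to samples, so that volume and antigen cannot be told apart. Node libraries were made from 500000 sorted cells and heart libraries from 5000.

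Read totals were 7534295 to 9235800 in nodes and 2426715 to 5126910 in hearts. The lowest listed count was 2. TRBV31 was listed with 2311 to 21048 entries per node and with 133, 148 and 233 entries in the 3 hearts. Libraries of the same group shared at most 24.1% of the TRBV31 entries of either library, so none was treated as a copy of another. Only TRB transcripts were amplified, so the cell type cannot be checked here against markers outside the receptor.

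The CDR3s below, printed as deposited (neither the cysteine that opens a CDR3 nor the phenylalanine that ends it is listed), show what a TRBV31 receptor looks like in these data. The first 5 were the only TRBV31 CDR3s listed in all 16 nodes, and the TRBJ segment follows each name.
Shared in all nodes, TRBJ2-3: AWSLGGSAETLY
Shared in all nodes, TRBJ2-3: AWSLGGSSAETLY
Shared in all nodes, TRBJ2-3: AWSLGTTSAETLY
Shared in all nodes, TRBJ1-4: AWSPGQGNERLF
Shared in all nodes, TRBJ2-3: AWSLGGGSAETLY
Most abundant in heart 1, TRBJ2-4: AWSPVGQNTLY
Most abundant in heart 2, TRBJ2-2: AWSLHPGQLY
Most abundant in heart 3, TRBJ1-4: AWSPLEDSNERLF
Listed in 2 hearts, TRBJ2-5: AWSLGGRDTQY

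Most TRBV31 CDR3s opened with the residues AWS. In the 16 nodes 78.0% ± 1.10 (SD) of TRBV31 reads had a CDR3 starting with AWS, against 8.2e-05% ± 1.1e-04 of the reads of all other segments. A start with AW covered 97.3% ± 0.356 of TRBV31 reads in nodes. AWR (8.16% ± 0.634), AWT (3.25% ± 0.330) and AWG (2.55% ± 0.480) were the next starts listed. Of the AWS reads, those starting AWSL made up the largest of the counted classes, at 43.3% ± 1.16 of TRBV31 reads, followed by AWSP at 11.8% ± 0.607. These starts were read from the entries named TRBV31, and they were not compared with the germline residues of the segment. Hearts were more uneven, with AWS in 73.6%, 88.7% and 56.4% of TRBV31 reads. In heart 3 AW covered 93.6%, and 5.42% of its TRBV31 reads started with ASS, the start of 73.7% ± 0.351 of the reads of other segments in nodes. Between 0% and 0.539% of a node library's TRBV31 reads had a CDR3 also listed with another TRBV segment in that library.

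TRBV31 held a similar share of reads in every lymph node group. It held 3.89%, 3.94% and 3.64% of reads in MI nodes and 3.96%, 3.85%, 3.74% and 3.52% in sham nodes. In axillary nodes it held 3.43%, 3.70% and 3.68% after heart extract, 3.90% and 3.73% after myosin and 3.49%, 3.99%, 3.45% and 4.07% after adjuvant. The hearts spread most, with 3.14%, 2.29% and 4.20%. All groups overlapped their neighbours in the order of means. That order was MI node (3.82% ± 0.157, n = 3), myosin (3.81% ± 0.122, n = 2), sham (3.77% ± 0.186, n = 4), adjuvant (3.75% ± 0.325, n = 4), heart extract (3.61% ± 0.151, n = 3) and heart (3.21% ± 0.953, n = 3). Counting error was far smaller than this spread: the Wilson 95% interval for heart 2 was 2.28% to 2.31%. Amplified reads without molecular identifiers are not independent molecules, so intervals and detection limits here cover counting error only. TRBV31 ranked 8th or 9th by reads among segments with at least 0.1% of reads in each node, between TRBV13-2 (median 4.66% of node reads) and TRBV20 (3.66%).

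**Figure D1:**
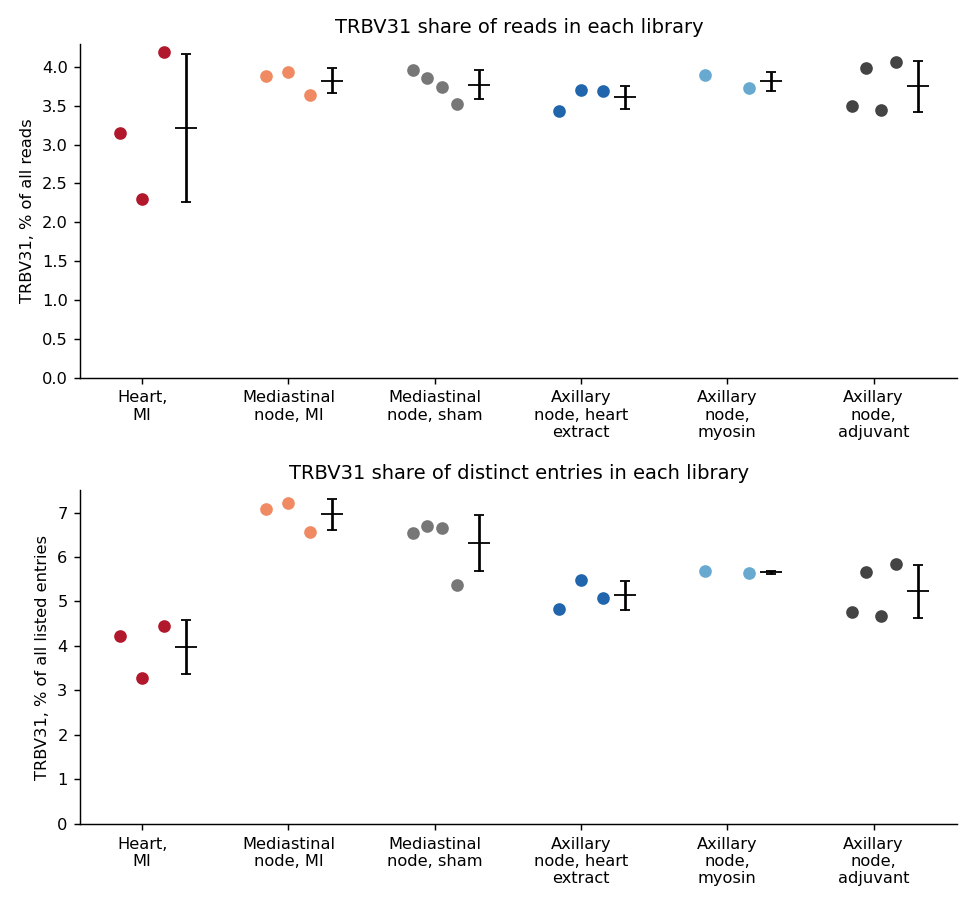
TRBV31 as a percentage of all reads (upper panel) and of all listed entries (lower panel) in each of the 19 libraries. Points are libraries, horizontal marks group means and error bars SD. Read shares overlap between all neighbouring groups, while entry shares are higher in mediastinal than in axillary means.

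No comparison of TRBV31 reads passed its test. MI nodes differed from sham nodes by 0.02 on the log2 scale (SE 0.0596; edgeR's quasi-likelihood test over 22 segments gave an adjusted p of 0.995), and 0% of segments were called in that comparison. After heart extract the change against adjuvant was -0.06 (SE 0.0597, adjusted p 0.641), with 9.09% of segments called. After myosin it was 0.02 (SE 0.0676, adjusted p 0.974), with 0% called and 2 segments with an unadjusted p under 0.05. For MI nodes against sham nodes, 0 segments had an unadjusted p under 0.05. These small SEs bound the node changes of TRBV31 more closely than the heart change. Sham nodes against adjuvant nodes gave 0.01 (SE 0.0552, adjusted p 0.904), in a comparison that called 45.5% of segments; site and treatment cannot be told apart there. The comparisons with adjuvant share its 4 libraries, and those with sham nodes share theirs.

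In infarcted hearts TRBV31 reads did not differ from MI nodes beyond the spread of the hearts. By edgeR the change was -0.25 on the log2 scale (SE 0.194, adjusted p 0.365), and 27.3% of segments were called. The result rested on heart 3: without it the change was -0.49 (adjusted p 0.00249). Alternatives gave adjusted p values from 2.1e-05 to 0.978. Counting entries in place of reads gave -0.81 (adjusted p 1.8e-04), and leaving out the 100 most abundant CDR3s of each library turned the sign to 1.11 (adjusted p 2.1e-05). Those 100 CDR3s held 70.4%, 64.4% and 58.1% of the reads of hearts 1, 2 and 3, and TRBV31 supplied 0%, 0% and 1.21% of the reads among them. In MI nodes they held 2.39%, 2.23% and 2.82% of reads, with 0% from TRBV31. Fewer TRBV31 cells and less TRB RNA per cell cannot be told apart in these bulk samples.

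The TRBV31 reads of a heart came from few CDR3s. The most abundant TRBV31 CDR3 held 8.96%, 9.13% and 10.1% of TRBV31 reads in hearts 1, 2 and 3, whereas in nodes it held 0.179% to 0.879%. The 10 most abundant entries held 54.5% to 61.2% of TRBV31 reads in hearts and 1.21% to 4.51% in nodes. In each heart 8 or 9 entries made up 50% of the TRBV31 reads, and 23 to 32 entries made up 90%. In nodes 275 to 3483 entries were needed for 50%. The sorted cell numbers differ between hearts and nodes, so tissue and cell number cannot be told apart here. If TRBV31 cells were as frequent as TRBV31 reads, the 5000 sorted cells of hearts 1, 2 and 3 would have held 157, 115 and 210 of them. The hearts listed 133, 148 and 233 TRBV31 entries, of which 25, 27 and 42 had at least 1000 reads. Entries with under 10 reads made up 68.4%, 60.8% and 58.8% of those listed, with 0.404%, 0.397% and 0.222% of the TRBV31 reads.

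**Figure D2:**
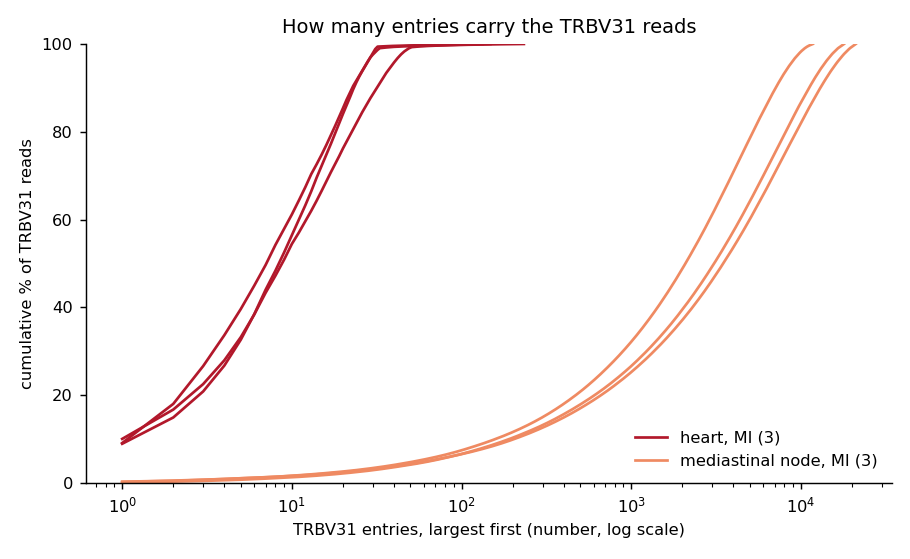
Cumulative percentage of TRBV31 reads (vertical axis) against the number of TRBV31 entries, largest first (horizontal axis, log scale), for 3 infarcted hearts and 3 MI nodes, 1 line per library. Heart lines reach 90% within 23 to 32 entries.

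Among large entries TRBV31 was frequent by number but small by reads in hearts. Of entries with at least 1000 reads, TRBV31 made up 7.81%, 5.88% and 7.25% in hearts 1, 2 and 3, and 3.03%, 2.25% and 4.20% of the reads in that class. The median TRBV31 entry of this class had 2415, 2296 and 3238 reads, against 4105, 4183 and 4083 for other segments. The top TRBV31 entry had 6833, 9209 and 21666 reads, where the top entry of other segments had 68148, 145259 and 171644. It ranked 100th, 133rd and 53rd in its heart. TRBV31 shared this pattern with other segments: in 11 of the 17 segments with at least 0.1% of node reads, TRBV31 included, the share of reads in this class was below the share of entries in all 3 hearts. TRBV20 averaged 6.98% of the entries and 2.88% of the reads, and TRBV13-1 8.60% and 2.33%, where TRBV31 averaged 6.98% and 3.16%.

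In nodes TRBV31 was scarce among the largest entries. Of 10565 node entries with at least 1000 reads, 40 used TRBV31, or 0.379%, against 3.75% of reads on average. Of the 100 most abundant entries in each node, TRBV31 had 1 in all 16 nodes together, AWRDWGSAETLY with TRBJ2-3, which ranked 5th in myosin node 1 with 2969 reads. TRBV31 was not alone in this: among the 17 segments with at least 0.1% of reads, 6 had a lower share of these large entries relative to their reads. Reads per TRBV31 entry were below the mean of other segments in 16 of 16 nodes, with the other segments 1.37 to 1.90 times higher. Segment by segment TRBV31 lay in the middle. It ranked 8th to 11th lowest in reads per entry among the 16 to 18 segments with at least 0.1% of reads in a node. The median number of reads per entry went the other way than the mean, and was higher for TRBV31 than for the other segments together in 13 of 16 nodes. By medians over nodes, entries with 10 to 99 reads had the highest TRBV31 share, at 8.35% of entries. It was 3.39% at 2 to 9 reads and 3.56% at 100 to under 1000 reads. Another class was highest in some nodes. In MI node 2 it was 2 to 9 reads (7.84% against 7.36%). In adjuvant node 3 (6.32% against 5.78%) and heart extract node 3 (7.63% against 5.26%) it was 100 to under 1000 reads.

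The TRBV31 share of distinct entries differed more between sites than its share of reads. It was 6.55%, 6.70%, 6.65% and 5.36% in sham nodes and 4.77%, 5.66%, 4.67% and 5.83% in adjuvant nodes. The groups overlapped, and edgeR on entries gave 0.27 on the log2 scale (adjusted p 0.0127), where the alternatives of this comparison ranged from 0.0127 to 0.984 in adjusted p. The number of entries moved with it: sham nodes listed 63299 to 272267 entries and adjuvant nodes 53672 to 116112. Across the 16 nodes the TRBV31 share of entries followed the total number of entries (Pearson r = 0.896, permutation p 1e-05, the smallest these permutations can give, and adjusted p 3e-05 over 3 relations; Spearman rho = 0.944, permutation p 1e-05). Without the 2 libraries farthest from the median total, r was 0.904. Within the 9 axillary nodes r was 0.917 (exact permutation p 0.00526; rho 0.850, exact p 0.00607), and within the 7 mediastinal nodes 0.828 (exact permutation p 0.00972; rho 0.821, exact p 0.0341), falling to 0.535 without the 2 farthest. The part of library size in the site difference was not tested.

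In nodes TRBV31 paired with the same 11 TRBJ segments as the rest of the repertoire, but in other proportions. In all 16 nodes it used more TRBJ2-3, TRBJ1-2 and TRBJ1-5, and less TRBJ2-7 and TRBJ1-1, than all other segments of the same library together. TRBJ2-3 held 17.6% ± 1.25 of TRBV31 reads and 10.9% ± 0.463 of other reads (SD, n = 16), a mean log2 ratio of 0.69. TRBJ1-2 held 6.40% ± 0.666 and 4.69% ± 0.303 (log2 ratio 0.45), and TRBJ1-5 held 2.91% ± 0.328 and 2.42% ± 0.212 (0.26). TRBJ2-7 held 8.46% ± 0.775 of TRBV31 reads and 12.4% ± 0.609 of other reads (log2 ratio -0.56), and TRBJ1-1 held 12.0% ± 1.27 and 14.9% ± 1.44 (-0.32). Each of these 5 had an exact sign-flip permutation p of 3.1e-05 over 16 nodes, the smallest possible, and an adjusted p of 6.7e-05 over 11 TRBJ segments. The comparison by single TRBJ segments was chosen after the data were seen.

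The other TRBJ partners differed less. TRBJ1-4, the next partner after TRBJ2-3, held 13.5% ± 1.48 of TRBV31 reads and 12.8% ± 0.884 of other reads, and was higher in 11 of 16 nodes (exact adjusted p 0.0207). TRBJ2-1, TRBJ2-2, TRBJ2-4 and TRBJ1-3 were lower with TRBV31, in 14, 14, 14 and 13 of 16 nodes, by log2 ratios of -0.16, -0.12, -0.13 and -0.10 (exact adjusted p up to 0.00429). TRBJ2-5 held 9.77% ± 0.815 of TRBV31 reads and 9.76% ± 0.591 of other reads and was higher in 8 of 16 nodes (exact adjusted p 0.974). In all, 10 of 11 TRBJ segments passed by reads. By distinct entries 8 passed, and TRBJ2-1 and TRBJ2-2 turned to 0.03 and 0.04 without passing. No other TRBV segment was put through the same comparison, so these counts have no background. Whether TRBV31 differs more than other segments do was not tested.

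**Figure D3:**
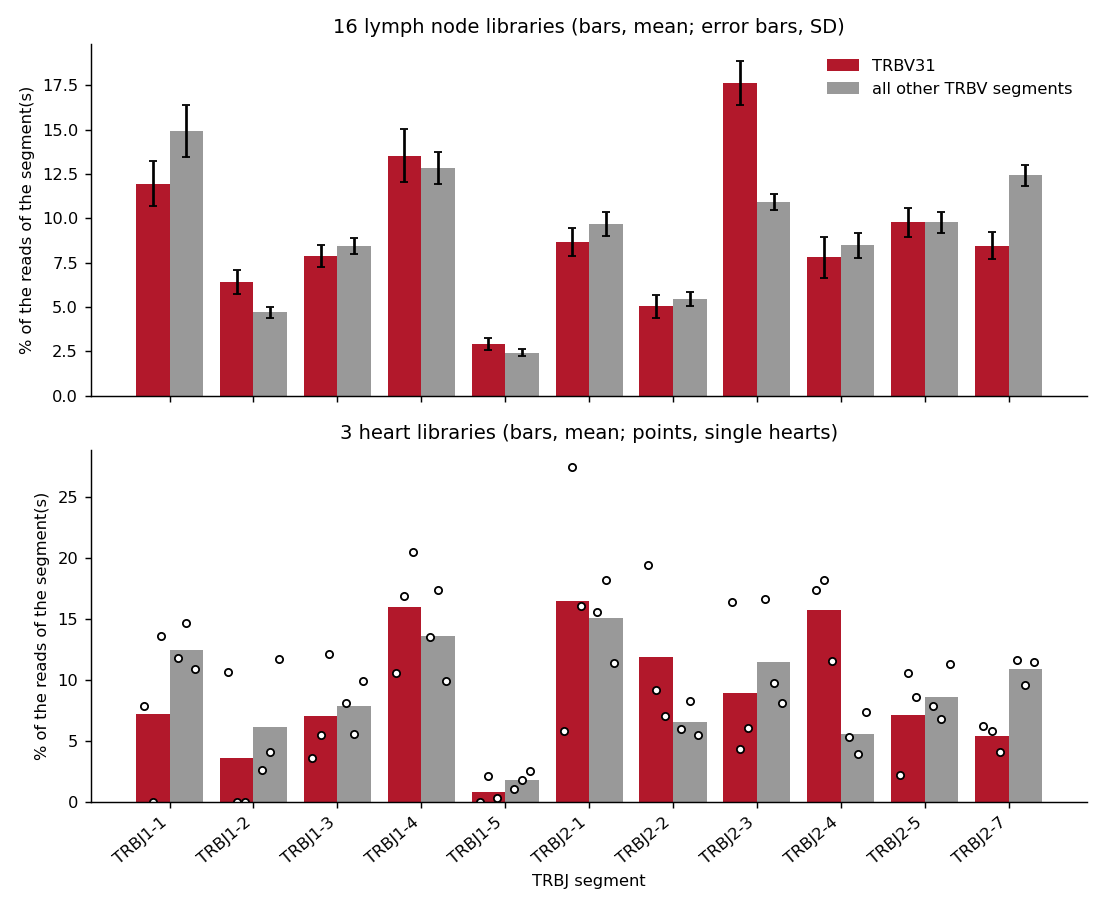
TRBJ usage as a percentage of the reads of TRBV31 and of all other TRBV segments, in 16 lymph nodes (upper panel, mean and SD) and 3 infarcted hearts (lower panel, mean with single hearts as points). TRBJ2-3 is the tallest TRBV31 bar in nodes, and single hearts scatter widely in the lower panel. In each heart TRBJ2-3 held less of the TRBV31 reads than of the other reads.

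By cluster, TRBV31 used the TRBJ1 segments about as often as other segments did. The TRBJ1 segments held 42.7% ± 3.11 of TRBV31 reads and 43.3% ± 3.03 of other reads in the 16 nodes. The mean difference within libraries was -0.64 percentage points (SD 1.22), TRBV31 was lower in 13 of 16, and the exact sign-flip permutation p was 0.0551. With distinct entries the difference was -0.738 (exact p 0.0244), and against the median of the other segments -1.40 (exact p 0.00229), so the call depends on the measure. TRBV31 ranked 7th to 12th by TRBJ1 share among the 16 to 18 segments with enough reads in a node. The large differences at single TRBJ segments lay in both clusters and in both directions.

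Between groups the TRBJ1 share of TRBV31 reads passed no test. It was 41.0%, 41.1% and 42.4% in MI nodes and 43.0%, 39.0%, 38.8% and 35.9% in sham nodes, a difference of 2.33 points (exact permutation adjusted p 0.8 over 4 measures). In axillary nodes it was 41.2%, 46.2% and 45.1% after heart extract, 44.3% and 46.0% after myosin and 47.2%, 43.8%, 42.3% and 45.6% after adjuvant. Heart extract differed from adjuvant by -0.558 points (exact adjusted p 0.971) and myosin by 0.419 (exact adjusted p 0.978). With 2 myosin libraries against 4, no exact p below 0.0667 was possible. All but 1 sham node lay below all adjuvant nodes, by 5.57 points on average, and the exact permutation test gave p 0.0571, or 0.229 after adjustment over 4 measures. The other segments moved alike, with 43.5%, 39.5%, 39.2% and 36.5% in sham nodes and 48.6%, 45.2%, 44.8% and 44.2% in adjuvant nodes.

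Hearts varied most in the TRBJ1 share of TRBV31. It was 32.7%, 24.4% and 46.6% in hearts 1, 2 and 3, against 41.0%, 41.1% and 42.4% in MI nodes. The values of hearts lay on both sides of the MI nodes, and the difference of -6.90 points had an exact permutation p of 0.4, where 3 against 3 allows none below 0.1. Other segments in the same hearts had TRBJ1 shares of 37.1%, 43.5% and 45.0%.

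**Figure D4:**
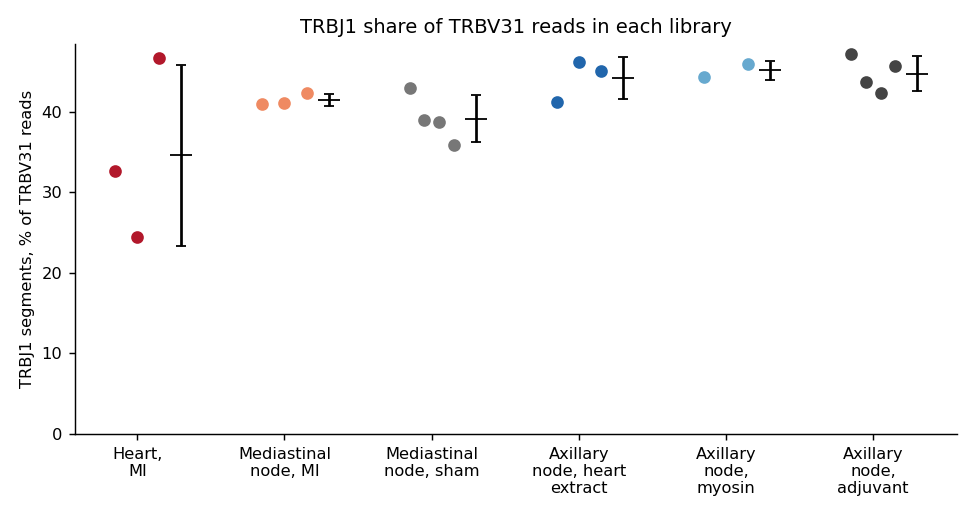
TRBJ1 segments as a percentage of TRBV31 reads in each library. Points are libraries, horizontal marks group means and error bars SD. The 3 hearts span 24.4% to 46.6%, wider than any lymph node group.

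Single TRBJ partners of TRBV31 were missing from single hearts. Heart 2 listed no TRBV31 read with TRBJ1-1 or TRBJ1-2, heart 3 none with TRBJ1-2 and heart 1 none with TRBJ1-5. A count of 0 allows up to 0.00297% of the TRBV31 reads in heart 2, 0.00139% in heart 3 and 0.00393% in heart 1. The mean shares in MI nodes were 11.6% for TRBJ1-1, 6.27% for TRBJ1-2 and 2.96% for TRBJ1-5. At these shares the TRBV31 cells computed above would have included 13.4 with TRBJ1-1 and 7.19 with TRBJ1-2 in heart 2. They would have included 13.2 with TRBJ1-2 in heart 3 and 4.65 with TRBJ1-5 in heart 1. Cell numbers are not numbers of different CDR3s: 25, 27 and 42 TRBV31 entries had at least 1000 reads in hearts 1, 2 and 3. TRBJ1-2 was not scarce in every heart, since in heart 1 it held 10.7% of TRBV31 reads in 19 entries. Other segments together used TRBJ1-2 in 4.10% of reads in heart 2 and 11.7% in heart 3. Missing partners were not counted for other single segments, so they are not shown to be particular to TRBV31.

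TRBJ2-7 was the TRBV31 partner called lower in hearts. TRBV31 reads with TRBJ2-7 made up 0.166% ± 0.0305 of all reads in hearts and 0.348% ± 0.0189 in MI nodes (SD, n = 3 each), which edgeR put at -1.07 on the log2 scale (SE 0.259, adjusted p 0.0364). The groups did not overlap: 0.133% to 0.194% in hearts and 0.333% to 0.369% in MI nodes. This was not particular to TRBJ2-7. TRBV31 with TRBJ1-5 or TRBJ2-3 was also lower in hearts without overlap, and with TRBJ2-2 or TRBJ2-4 higher. None of these was called, and overlap was not counted over all 242 TRBV-TRBJ pairs. The TRBJ2-7 call was 1 of 11 TRBV31 pairs, or 9.09%. The comparison called 21.5% of all 242 pairs, with 20.7% called lower, so TRBV31 pairs were called no more often than the background. The call was lost without MI node 1, 2 or 3, with entries of at least 10 reads and with a replicate block (0 pairs each; lowest adjusted p 0.0750 with at least 10 reads and 0.312 with the block), while 3 pairs were called without heart 1 and 2 without heart 2 or heart 3. TRBJ2-4 went the other way, with 0.483% ± 0.0647 of all reads in hearts and 0.298% ± 0.0269 in MI nodes, which edgeR put at 0.70 on the log2 scale and did not call (SE 0.235, adjusted p 0.106). It held 17.4%, 18.2% and 11.6% of TRBV31 reads in hearts 1, 2 and 3.

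Among nodes, 1 TRBV31 pair was called. TRBV31 with TRBJ2-4 made up 0.341% ± 0.0363 of all reads in sham nodes (n = 4) and 0.257% ± 0.0323 in adjuvant nodes (n = 4), a difference that edgeR put at 0.41 on the log2 scale (SE 0.103, adjusted p 0.0102). As a share of TRBV31 reads, TRBJ2-4 held 8.14%, 8.86%, 8.26% and 11.1% in sham nodes and 7.01%, 7.33%, 6.35% and 6.73% in adjuvant nodes, without overlap. That is 9.09% of the TRBV31 pairs, against 28.1% of all pairs called in this comparison and 16.5% called higher, and 5 of the 11 had an unadjusted p under 0.05. Without sham node 1, 3 pairs were called, and without adjuvant node 1, 2, 3 or 4, 2 were called. By edgeR, 0 TRBV31 pairs were called, and 0 had an unadjusted p under 0.05, for MI nodes against sham nodes, heart extract against adjuvant and myosin against adjuvant. The background was 0% of all pairs in each of these 3, and DESeq2 also called 0 TRBV31 pairs.

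The CDR3s of TRBV31 were shorter than those of other segments in every library. Mean lengths weighted by reads were 11.8 ± 0.0511 residues for TRBV31 and 12.1 ± 0.0192 for all other segments over 16 nodes, as deposited. The mean difference was -0.27 residues (SD 0.0561, range -0.369 to -0.167). It was below 0 in 16 of 16 nodes, with an exact sign-flip permutation p of 3.1e-05, the smallest possible. TRBV31 was not the shortest segment: it ranked 3rd to 9th shortest among the 16 to 18 segments of a node, and against the median segment the difference was -0.113 (16 of 16 nodes, exact p 3.1e-05). TRBV20, for example, had a median of 11.3 residues per node.

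The shift ran along the whole length distribution. CDR3s of at most 10 residues held 15.3% ± 1.07 of TRBV31 reads and 11.6% ± 0.467 of other reads, and TRBV31 was higher in 16 of 16 nodes. CDR3s of 14 or more held 9.61% ± 0.800 and 13.4% ± 0.358, and TRBV31 was higher in 0 of 16. The most frequent length was 12 residues for both, at 30.0% and 30.2% of reads. The difference was also seen within TRBJ segments, from -0.463 residues with TRBJ2-7 to -0.128 with TRBJ2-4, and TRBV31 was shorter in 15 or 16 of 16 nodes for each of them.

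**Figure D5:**
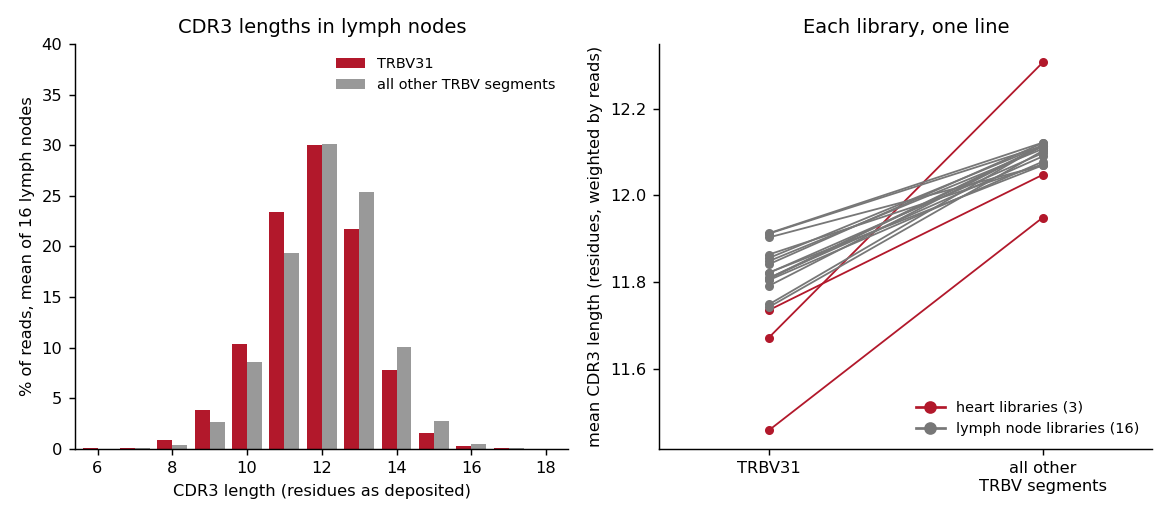
Left, CDR3 length in residues as deposited against the mean percentage of reads over 16 lymph nodes, for TRBV31 and all other TRBV segments. Right, mean CDR3 length of both in each library, 1 line per library, on an axis that does not start at 0. In every library TRBV31 is the lower end of the line.

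No treatment changed TRBV31 CDR3 length beyond the spread of libraries. The mean was 11.81 ± 0.0021 residues in MI nodes and 11.83 ± 0.0702 in sham nodes, a difference of -0.02 (exact permutation adjusted p 0.8). It was 11.84 ± 0.0396 after heart extract, 11.83 ± 0.0136 after myosin and 11.84 ± 0.0785 after adjuvant, and both exact adjusted p values were at least 0.971. Hearts had 11.7, 11.7 and 11.5 residues, below all 3 MI nodes, a difference of -0.19 with an exact permutation p of 0.1, the smallest that 3 against 3 allows (adjusted p 0.4). By distinct CDR3s the means were 11.89, 11.89 and 11.59 in hearts and 11.85, 11.83 and 11.78 in MI nodes, so that hearts 1 and 2 lay above all MI nodes, a difference of -0.03 (exact permutation p 1). In the same hearts other segments had 12.3, 12.0 and 11.9 residues by reads. CDR3s starting with AWS averaged 11.95, 11.79 and 12.25 residues in hearts and 11.98 in each of the 3 MI nodes. The hearts lay on both sides of the MI nodes, and the mean difference was 0.01 (exact adjusted p 1; over this comparison's alternatives from 0.2 to 1). In nodes CDR3s with another start averaged 11.2 ± 0.0738 residues, against 12.0 ± 0.0645 for AWS starts, and were shorter in 16 of 16. They held 26.4%, 11.3% and 43.6% of the TRBV31 reads in hearts 1, 2 and 3, where they averaged 10.9, 11.3 and 10.4 residues.

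Strings read from the D segments differed between the J clusters. TRBD2 lies behind the TRBJ1 cluster and can by deletion join TRBJ2 segments only, while TRBD1 can join both. The string DWG, one of the readings of TRBD2, was in 5.27% ± 0.575 of TRBV31 entries with TRBJ2 and in 0.0217% ± 0.0389 of those with TRBJ1 (SD, n = 16 nodes). GLG, also a TRBD2 reading, was in 4.94% ± 0.417 and 0.329% ± 0.154. The TRBD1 readings were in both clusters: GQG in 2.45% ± 0.253 of TRBV31 entries with TRBJ2 and 5.38% ± 0.658 with TRBJ1, and DRG in 1.77% ± 0.282 and 3.57% ± 0.575. In other segments DWG was in 4.87% ± 0.124 of entries with TRBJ2 and 0.211% ± 0.0295 of those with TRBJ1. There GLG was in 4.09% ± 0.260 and 0.392% ± 0.0599, GQG in 3.16% ± 0.134 and 5.46% ± 0.249, and DRG in 3.19% ± 0.113 and 4.15% ± 0.246. With TRBJ2, DRG reached at most 2.18% of TRBV31 entries in a node and was at least 3.03% in other segments. For GQG these values were 2.86% and 2.96%. Differences between TRBV31 and other segments in these strings were not tested. These strings can also arise from added bases, and they were not traced to nucleotides.

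Most TRBV31 CDR3s were private to a library. Of the 90792 TRBV31 CDR3s listed in nodes, 79.6% were in 1 node. With CDR3s counted per segment this was the 6th lowest share of 22 segments, which ran from 77.9% for TRBV13-2 to 99.4% for TRBV23. The 5 listed in all 16 nodes (0.00551%) all began with AWS and 4 of them ended in TRBJ2-3. Counted per segment, TRBV31 ranked 6th of 22 by the share in every node, TRBV5 was highest with 38 CDR3s (0.0202%), and 13 segments had 0. Together the 5 held 0.270% to 1.12% of TRBV31 reads in nodes and 0% in the 3 hearts. Such shares of the 157, 115 and 210 TRBV31 cells computed above for hearts would be very few cells. The 0% in hearts therefore cannot be read as a difference from nodes.

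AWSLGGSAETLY was the most widespread TRBV31 receptor by reads. It had 461, 923 and 1026 reads in MI nodes and 227, 856, 744 and 186 in sham nodes. In axillary nodes it had 184, 511 and 363 reads after heart extract, 476 and 790 after myosin and 772, 743, 790 and 802 after adjuvant. It was the most abundant TRBV31 CDR3 of 5 nodes: MI nodes 2 and 3, sham node 3, myosin node 2 and adjuvant node 4. Its levels overlapped between MI and sham nodes, and it was listed in 0 hearts. With the TRBV31 cell numbers computed above for hearts, that 0 cannot be read as a difference from nodes.

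The other most abundant TRBV31 CDR3s of single nodes ranged from private to widely shared. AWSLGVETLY (sham node 1), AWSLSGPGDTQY (sham node 2) and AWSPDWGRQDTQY (MI node 1) were each listed in 1 node, as were the top TRBV31 CDR3s of sham node 4, with TRBJ2-2, and of heart extract node 1, with TRBJ1-1. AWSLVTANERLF (adjuvant node 1) was listed in 3, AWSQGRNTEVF (heart extract node 3) in 7 and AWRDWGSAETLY (myosin node 1) in 8. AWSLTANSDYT (heart extract node 2) was listed in 12, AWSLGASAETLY (adjuvant node 2) in 14 and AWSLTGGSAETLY (adjuvant node 3) in 15. Both of the last named carry TRBJ2-3, as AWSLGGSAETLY does.

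The hearts had almost no TRBV31 CDR3 in common. Of 513 TRBV31 CDR3s listed in hearts, 1 was in 2 hearts and 0 were in all 3. That 1, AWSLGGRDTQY, had 1656 reads in heart 1 and 13 in heart 3, and was listed in 15 nodes with up to 310 reads. Sharing between hearts was not counted for other segments, so its rarity is not shown to be particular to TRBV31. Of the 9 leading heart CDR3s (3 per heart), 4 were listed in a node and 5 in none, where 26.1% of all heart TRBV31 CDR3s were listed in a node. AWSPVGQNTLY had 6833 reads in heart 1 and 97 in MI node 1 only, and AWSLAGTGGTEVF (4563 reads in heart 1) was in 0 nodes. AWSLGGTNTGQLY (4520 reads in heart 1) was listed in 8 nodes, including MI nodes 1, 2 and 3 with 23, 63 and 16 reads. In heart 2, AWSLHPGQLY (9209 reads) and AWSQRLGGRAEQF (8688) were in 0 nodes and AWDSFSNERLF (8997) in 1, adjuvant node 4. In heart 3, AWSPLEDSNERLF (21666 reads) and AWGANTEVF (12479) were in 0 nodes, while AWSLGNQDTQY (14365) was in 13.

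For single mediastinal nodes, shared entries held more of a heart's TRBV31 reads than of its TRBV31 entries in 20 of 21 heart-node pairs. The exception was heart 3 with sham node 4. Entries with under 10 reads made up 58.8% to 68.4% of a heart's TRBV31 entries and 0.222% to 0.404% of its TRBV31 reads. Sharing of any larger entries thus tends to give this order, and no other segment was compared. The 21 pairs also reuse the same hearts and nodes. Shared entries made up 6.77% to 16.5% of a heart's TRBV31 entries for MI nodes and 0.858% to 12.8% for sham nodes. The entries of heart 1 that were also in an MI node held 53.7%, 26.9% and 20.9% of its TRBV31 reads for MI nodes 1, 2 and 3. For heart 2 these shares were 36.4%, 41.8% and 18.4%, and for heart 3 31.8%, 24.7% and 30.7%. In sham nodes the ranges were 14.2% to 30.9% for heart 1, 12.9% to 36.4% for heart 2 and 0.00837% to 25.7% for heart 3. The ranges of MI and sham nodes overlapped for each heart. The difference was not tested, since MI nodes 1, 2 and 3 each listed more entries than at least 3 of the 4 sham nodes.

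Across the 16 nodes, the segments whose log2 read share moved most like that of TRBV31 were TRBV13-2, TRBV13-1 and TRBV1, with Pearson correlations of 0.55, 0.43 and 0.36 and Spearman correlations of 0.54, 0.38 and 0.25. TRBV14, a segment other than Vβ14, moved most against it (Pearson -0.64, Spearman -0.71). Shares of a library add to 100%, so these values describe the 16 libraries and carry no test.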

How the data were processed

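T cell receptor beta repertoires were measured in 19 libraries. Per the labels' protocols, TRB transcripts were amplified by multiplex PCR with gene-specific primers and pooled at equal mass. The deposited values are raw read counts per CDR3, TRBV and TRBJ, in whole numbers of at least 2; no molecular identifier is mentioned. For the aligner and error correction nothing is given in these sources.

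Counts were summed per TRBV segment (22) and per TRBV-TRBJ pair (242) and tested with edgeR 4.0.16 in R 4.3.3 (glmQLFit, robust, legacy settings, library total as offset), adjusted by Benjamini-Hochberg over the whole table at 0.05. The 16 nodes shared a fit, and hearts and MI nodes had their own. TRBJ1 shares and lengths were tested by two-sided exact permutation, adjusted over 4 measures; differences within libraries were tested by exact sign-flip permutation. Alternatives were TMM, DESeq2 1.42.0, default edgeR settings, entries with at least 10 reads, segments under 0.1% left out, distinct entries, the 100 most abundant CDR3s left out, AWS starts only, a replicate block and leaving out each library. Scripts were tested on simulated data. Shares carry Wilson 95% intervals; a count of 0 is given the limit of 3 counts.

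The labels do not say that each library is 1 animal, so p-values reflect only how libraries vary, which may be technical. TRBV31, the lists and the tests were chosen with earlier results of these data known. Named were TRBV31, every TRBJ partner, the 3 most and the 1 least similar segments in share, the neighbours in share, the top TRBV31 CDR3 of each library, those in all nodes, the top 3 of each heart and those in more than 1 heart. TRBV20 (length), TRBV20 and TRBV13-1 (large heart entries) and TRBV13-2, TRBV23 and TRBV5 (sharing) were named there after their values were seen.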

Additional observations from a re-analysis of the deposited data

Results flagged for a closer look

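Of 14 sets of library values of TRBV31, 1 held a library that stood apart from its group. The TRBV31 share of distinct entries was 5.36% in sham node 4, against 6.55%, 6.70% and 6.65% in the other 3 sham nodes. Its gap to the nearest sham node was 0.888 of the group's range. Chance flags about 1 in 20 such sets. Sham node 4 also listed the fewest entries of the sham nodes, 63299, against 135426 to 272267.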

How the results depend on the processing

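Of 317 alternative values of 43 results, 243 kept their direction and side of the threshold and 52 changed sign. In 51 of the 52 the alternative itself did not pass, whether or not the main result had. TRBJ2-1 and TRBJ2-2 passed by reads (exact sign-flip adjusted p 6.7e-04 and 0.00429). They changed sign by distinct entries without passing (exact sign-flip adjusted p 0.333 and 0.217). TRBV31's shorter CDR3s in nodes kept sign and call under all 3 alternatives. The cause of each change below was not tested. Heart calls rest on few cells, and reads without molecular identifiers cannot show cell numbers.

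For the TRBV31 share (log2), MI against sham gave -0.0485 with entries of at least 10 reads and -0.0098 to 0.0544 leaving out each library. Hearts against MI nodes gave -0.81 with distinct entries, 1.11 without the 100 most abundant CDR3s and -0.492 to -0.0589 leaving out each library. Myosin against adjuvant gave -0.0077 with TMM factors and -0.0138 to 0.0656 leaving out each library. Sham against adjuvant gave -0.0513 with TMM factors, -0.0263 with DESeq2, -0.0247 with at least 10 reads, 0.27 with distinct entries and -0.0312 to 0.0483 leaving out each library.

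TRBV31 pairs called in hearts numbered 3 with DESeq2, 0 with at least 10 reads and 0 to 3 leaving out each library, against 1. In sham against adjuvant they numbered 2 with TMM factors, 3 with DESeq2, 2 with at least 10 reads and 1 to 3 leaving out each library, against 1.

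The library numbers in the labels were not treated as pairing in the main tests. Same-numbered libraries' deviations over 106 TRBV-TRBJ pairs correlated between -0.27 and 0.39, and in no comparison were all above 0.1. In sham against adjuvant, numbers 1 and 3 correlated at 0.39 and 0.36. Shared TRBV31 entries bear on this for hearts and MI nodes. Those of MI nodes 1, 2 and 3 held their largest share of TRBV31 reads in the same-numbered heart (53.7%, 41.8% and 30.7%). Heart 3, however, shared more of its reads with MI node 1 (31.8%). By entries MI node 2 shared 13.53% of heart 1 and 13.51% of heart 2. This was not tested. With so few libraries per group these values cannot decide whether the numbers mark pairs. With the replicate block 0 pairs were called in hearts (lowest adjusted p 0.312), and the other counts of pairs and the sides of the share tests did not change. Libraries correlated best with their own number in 1 of 3 pairs for MI against sham, 2 of 4 for sham against adjuvant and 0 in the other 3 comparisons.

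For the TRBJ1 share of reads (points), heart extract against adjuvant gave 0.160 with AWS starts and -1.56 to 0.918 leaving out each library, and myosin against adjuvant -0.411 to 1.25. By distinct CDR3s, hearts against MI nodes ranged from -8.21 to 1.95 leaving out each library. Myosin against adjuvant gave 2.10 with at least 10 reads, 0.733 with AWS starts and -1.23 to 0.0259 leaving out each library, and sham against adjuvant 2.47 with at least 10 reads. Within nodes, TRBV31 minus other segments gave -0.738 with distinct entries and -1.40 against the median segment.

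For mean length by reads (residues), leaving out each library gave -0.0536 to 0.00294 for MI against sham, -0.0384 to 0.0164 for heart extract, -0.0436 to 0.0111 for myosin and -0.0443 to 0.0170 for sham, the last 3 against adjuvant. With AWS starts hearts gave 0.0137 and heart extract 0.00117. By distinct CDR3s, at least 10 reads gave 0.00599 for MI against sham and 0.00494 for sham against adjuvant, and AWS starts 0.0122 for hearts. Leaving out each library gave -0.0293 to 0.00904 for MI against sham, -0.0807 to 0.0712 for hearts, -0.0329 to 0.0271 for heart extract, -0.0532 to 0.00493 for myosin and -0.0372 to 0.0209 for sham against adjuvant.

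For single TRBJ partners, chosen after the data were seen, distinct entries turned TRBJ2-1 to 0.0266, TRBJ2-2 to 0.0380 and TRBJ2-5 to 0.0149 (log2).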
